A study of Homo sapiens with 8 samples.

Results

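The miRNAs described are the 4 mature products of 2 neighbouring hairpins, miR-191 and miR-425, that lie in an intron of DALRD3 on chromosome 3. They were chosen by name: hsa-miR-191-5p, hsa-miR-191-3p, hsa-miR-425-5p and hsa-miR-425-3p, 4 of the 2575 names in the count files. Reads were counted in 8 small RNA libraries of HCT116, an established human colorectal cancer line of epithelial origin, all described as passage 16-19. In 4 libraries the cells had met enterotoxigenic Bacteroides fragilis, or ETBF, a colonic anaerobe whose secreted toxin is a zinc protease, for 6 hours at 500 bacteria per cell. The other 4 are controls, titled untreated, which per the labels' protocols were given bacterial medium that held no ETBF. No label states whether the 4 libraries of a group are separate cultures, so p-values measure the spread between these libraries, which may be technical. The title of the series places the study in intestinal inflammation and colorectal carcinogenesis.

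Intronic miRNAs of this kind are cut out of the host gene's transcript by Drosha and then by Dicer. Usually one arm of the duplex, the guide, is kept by an Argonaute protein and finds its targets through its seed (bases 2 to 8), while the passenger arm is mostly degraded. DALRD3 encodes a protein that takes part in the modification of arginine tRNAs. MiR-191 is raised in several tumour types, including colorectal cancer, and miR-425 has been described as induced by interleukin-1 through NF-kB in gastric cancer cells. Both guide arms are widely used as reference miRNAs that set the scale in quantitative PCR.

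The hairpins are on the minus strand, with miR-191 upstream of miR-425 and 383 bases between them. MIR191 lies at chr3:49020618-49020709 and MIR425 at chr3:49020148-49020234 (RefSeq, GRCh38.p14; the authors counted on GRCh37.p5). In GENCODE 29 both fall in the first intron of 3 protein-coding DALRD3 transcripts and 1 processed transcript. They lie outside 4 other protein-coding DALRD3 transcripts and 7 with a retained intron. MIR191 also overlaps NDUFAF3, a mitochondrial complex I assembly factor gene on the opposite strand. The 2 hairpins are shown whole because the paired arms and their spacing define the 4 products counted, with the arms listed in RefSeq in capitals (both for MIR191, the 3p arm for MIR425):
MIR191: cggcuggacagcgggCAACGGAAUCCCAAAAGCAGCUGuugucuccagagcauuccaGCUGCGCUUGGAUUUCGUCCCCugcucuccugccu
MIR425: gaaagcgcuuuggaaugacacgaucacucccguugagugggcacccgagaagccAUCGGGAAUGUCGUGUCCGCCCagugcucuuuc

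The mature arms were matched by name for 3 of the 4 members, hsa-miR-425-5p being the other, and are shown with the seed in capitals, since the seed decides which messages a miRNA can pair with:
hsa-miR-191-5p: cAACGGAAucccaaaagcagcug
hsa-miR-191-3p: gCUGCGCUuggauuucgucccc
hsa-miR-425-3p: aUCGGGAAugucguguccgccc
The 3 seeds differ, and none of the other human miRNAs in the RefSeq table has the seed of any of them. The arms are 23, 22 and 22 bases long, so read counts can be set side by side without a length correction, although ligation and amplification favour some sequences over others. Their GC content was 52.2% for miR-191-5p and 63.6% for both 3p arms.

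Library totals were 2591655 to 4706156 counts with ETBF and 5243400 to 6522542 in controls, so the upper limit set by a count of 0, which is 3 counts, came to 0.637 to 1.16 CPM with ETBF and 0.46 to 0.572 CPM in controls (counting error only). Control replicate 1 stood apart from the other controls in its raw counts. Chi-square per degree of freedom was 80.4 to 138.9 against each of them and 22.5 to 49.8 among the other 3. Between ETBF libraries it was 23.7 to 75.2. Over the 145 miRNAs that averaged 100 CPM or more, the median absolute deviation of control replicate 1 from the other 3 controls was 0.10 log2 units. That of the other controls was 0.09 to 0.11. The fold change, spread and ratios of miR-191-5p are given with and without control replicate 1. Values of other miRNAs include control replicate 1 unless stated. The nearest profiles were found over all 8 libraries only. The libraries carried the marks of epithelial cells, with all 6 epithelial marker miRNAs detected in each and summing to 22600 to 24400 CPM with ETBF and 24600 to 27100 CPM in controls. The 7 blood markers summed to 74 to 108 CPM with ETBF and 58.5 to 69.9 CPM in controls, with 4 to 7 of them detected in a library. Over the 8 libraries miR-486-5p was at 30.1 to 40.2 CPM and miR-451a at 4.93 to 59.8 CPM. MiR-142-3p (10.6 to 16.6 CPM) and miR-142-5p (4.63 to 7.65 CPM) were also present in each. MiR-223-3p and miR-150-5p were at 0 or under 1 CPM, and miR-144-3p at 0 to 1.54 CPM. The 3 muscle and stroma markers summed to 233 to 298 CPM with ETBF and to 240 to 265 CPM in controls. MiR-143-3p was at 89.2 to 109 CPM and miR-145-5p at 132 to 196 CPM. The epithelial markers miR-192-5p (145 to 192 CPM) and miR-194-5p (128 to 177 CPM) were at like levels. MiR-133a-3p was at 0 or under 1 CPM. Entries like ribosomal or other RNA, a sign of RNA quality, took 0.019 to 0.0622% of counts with ETBF and 0.00429 to 0.0162% in controls. Of 11 such entries 5 were at 0 in every ETBF library, and 5 or 6 in each control library. All 4 that could be tested were higher, where 19.8% of all 480 tested miRNAs were. For 1 of the 4, miR-6087, the groups overlapped (195 ± 170 CPM with ETBF, 67.3 ± 46.4 CPM in controls). The part of any of these in the values below was not tested.

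No change was detected in any of the 4 arms after 6 hours with ETBF. All 4 passed the filter on low counts, and 0 of the 4 had an adjusted p under 0.05 in edgeR's quasi-likelihood test, where 34.4% of the 480 miRNAs tested did (19.8% higher and 14.6% lower). None of the 4 had an unadjusted p under 0.05 either, and limma-voom and DESeq2 also called 0 of them. On the TMM scale the ETBF and control ranges overlapped for every arm, where 33.8% of all tested miRNAs had ranges without overlap. As percent of the library total, 1 of the 4 arms, miR-425-5p, had ranges without overlap, where 32.5% of all tested miRNAs did. The levels kept 1 order in every library, miR-191-5p far above miR-425-5p, then miR-425-3p, then miR-191-3p, and neighbours in this order were further apart than the spread within either group.

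**Figure D1:**
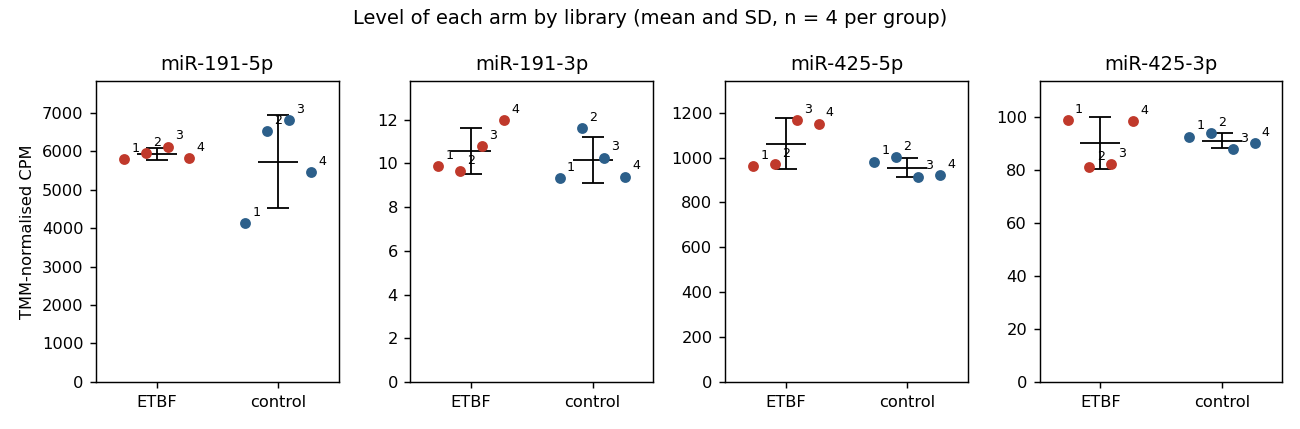
Level of each arm in each library, as CPM normalised with TMM factors (y axis, from 0, own scale per panel), with ETBF libraries in red on the left and control libraries in blue on the right; digits are replicate numbers and bars are mean and SD. The 2 groups overlap in every panel, and control replicate 1 is the low point for miR-191-5p at 4123 CPM.

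MiR-191-5p, the guide arm and by far the main product of the locus, was at 5793, 5964, 6124 and 5828 CPM in ETBF replicates 1 to 4. In control replicates 1 to 4 it was at 4123, 6533, 6808 and 5464 CPM. The 4 ETBF libraries lay close together and inside the range of the controls, of which replicate 1 was low and replicates 2 and 3 were above all ETBF libraries. The means were 5927 ± 150 CPM in ETBF libraries, against 5732 ± 1219 CPM in control libraries (SD, n = 4 each). The log2 fold change was 0.05 (SE 0.12; edgeR adjusted p = 0.787), with a 95% interval of -0.20 to 0.29, or 0.872-fold to 1.23-fold. Without control replicate 1 the value turned to -0.08 (adjusted p = 0.474), and with upper-quartile scaling to -0.04 (adjusted p = 0.816).

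MiR-425-5p, the guide arm of the second hairpin, was at 961, 970, 1166 and 1152 CPM in ETBF replicates 1 to 4, against 982, 1002, 915 and 920 CPM in control replicates 1 to 4. ETBF replicates 3 and 4 were above every control, while ETBF replicates 1 and 2 lay among the controls. The means were 1062 ± 112 CPM in ETBF libraries, against 955 ± 43.6 CPM in control libraries (SD, n = 4 each), a log2 fold change of 0.15 (SE 0.08) that did not pass (edgeR adjusted p = 0.154, unadjusted p = 0.0737). Its 95% interval ran from -0.02 to 0.32, or 0.989-fold to 1.25-fold. As a share of the library it was 0.0951 to 0.119% with ETBF and 0.0918 to 0.0946% in controls, ranges that did not overlap, and with total-count scaling the log2 fold change was 0.21 (edgeR adjusted p = 0.0542). The gap between the ranges, from control replicate 4 to ETBF replicate 1, was smaller than the counting errors there (1.27% and 1.5% of the value). After removal of a trend of fold change on hairpin GC content (an alternative chosen after seeing the data), miR-425-5p was at 0.23 and passed with an adjusted p of 0.0392 over the 389 miRNAs with a hairpin sequence; over all 18 alternatives its adjusted p ran from 0.0392 to 0.573.

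MiR-425-3p, the passenger arm of that hairpin, was at 98.9, 81.3, 82.2 and 98.4 CPM in ETBF replicates 1 to 4 and at 92.7, 94.0, 87.8 and 90.1 CPM in control replicates 1 to 4. The ETBF libraries fell into a pair above and a pair below all controls. The means were 90.2 ± 9.76 CPM in ETBF libraries, against 91.2 ± 2.76 CPM in control libraries (SD, n = 4 each), with a log2 fold change of -0.02 (SE 0.09, edgeR adjusted p = 0.91, 95% interval -0.22 to 0.18). The sign of this value turned in 6 of 19 alternatives, among them the fits without ETBF replicate 2 or ETBF replicate 3 (both 0.01), and it passed in none of the 19.

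MiR-191-3p, the passenger arm of miR-191, was the scarcest product, with 46, 41, 42 and 32 counts in ETBF replicates 1 to 4 and 47, 66, 54 and 63 counts in control replicates 1 to 4. These counts correspond to 9.89, 9.63, 10.8 and 12.0 CPM with ETBF and 9.35, 11.6, 10.3 and 9.40 CPM in controls, 2 sets that overlap over most of their range. The means were 10.6 ± 1.06 CPM in ETBF libraries, against 10.2 ± 1.06 CPM in control libraries (SD, n = 4 each), with a log2 fold change of 0.04 (SE 0.16, edgeR adjusted p = 0.867, 95% interval -0.29 to 0.38). Its sign was negative when scaled by upper quartiles (-0.04) or when ETBF replicate 4 was left out (-0.01). Its coefficient of variation was 10% with ETBF and 10.5% in controls, against a counting error of 14.7 to 17.7% with ETBF and 12.3 to 14.6% in controls.

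The guide arms were counted far more deeply, and their spread was above counting error. MiR-191-5p had 15572 to 26956 counts with ETBF and 20735 to 37099 in controls, for a counting error of 0.609 to 0.801% with ETBF and 0.519 to 0.694% in controls. Its coefficient of variation was 2.54% with ETBF and 21.3% in controls, or 11.3% in the 3 controls without replicate 1. For miR-425-5p it was 10.5% with ETBF and 4.57% in controls, against a counting error of 1.48 to 1.8% with ETBF and 1.27 to 1.44% in controls. The 2 guide arms spread in opposite groups: miR-191-5p varied more among controls and miR-425-5p more among ETBF libraries.

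Spread matters for these arms because a reference miRNA is meant to vary little. The SD of log2 CPM was ranked from the smallest among the 145 miRNAs that averaged 100 CPM or more. In ETBF libraries miR-191-5p had an SD of 0.04 and ranked 9, while in controls it had an SD of 0.33 and ranked 143. Without control replicate 1 the other 3 controls had an SD of 0.17 (rank 132, median 0.09). Over all 8 libraries its SD was 0.22 (rank 94, where the median miRNA had 0.17), and without control replicate 1 it was 0.11 (rank 25, median 0.17). MiR-425-5p had an SD of 0.15 with ETBF (rank 113) and 0.07 in controls (rank 29), and 0.13 over all 8 (rank 45). These ranks describe the 8 libraries and were not tested.

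**Figure D2:**
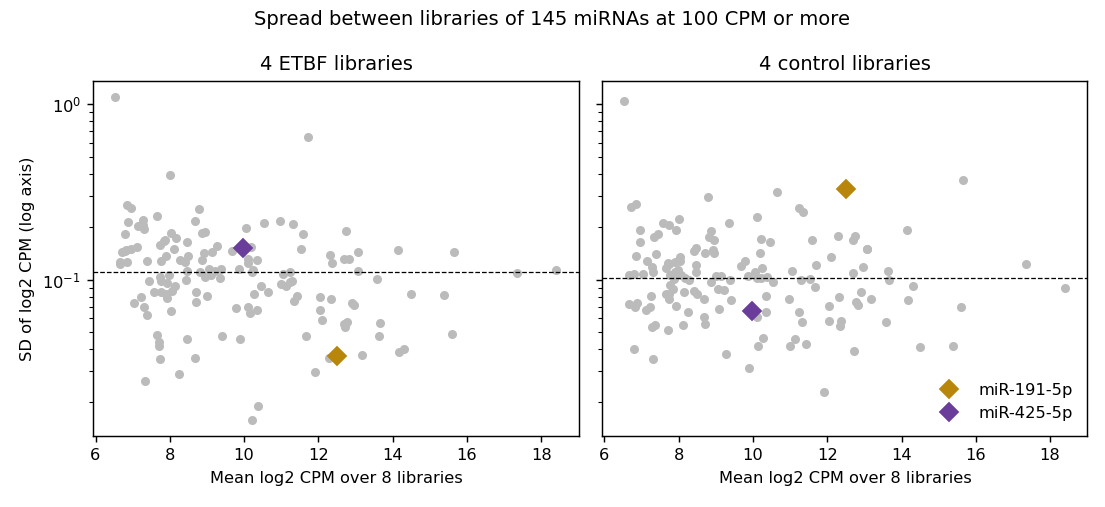
SD of log2 CPM between the 4 libraries of a group (y axis, log scale) against mean log2 CPM over 8 libraries (x axis), ETBF left and control right; each grey point is 1 of 145 miRNAs that averaged 100 CPM or more, diamonds are the 2 guide arms and the dashed line is the median. MiR-191-5p is near the bottom with ETBF (SD 0.04) and near the top in controls (SD 0.33, or 0.17 without control replicate 1), and miR-425-5p is above the median with ETBF and below it in controls.

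Much of the spread of miR-191-5p in controls lay in control replicate 1. There it was 0.60 log2 units below the mean of the other 3 controls, the third lowest deviation of the 145 miRNAs in that library, after miR-6087 (-1.58), an entry like ribosomal RNA, and miR-100-5p (-0.63). Control replicates 2 and 3 were 0.29 and 0.37 above the mean of the other 3 controls, and 0.10 and 0.19 above the mean of the other 2 when control replicate 1 was left out, where control replicate 4 was 0.29 below. In control replicate 1, 7 of the 145 miRNAs deviated by more than 0.5 log2 units, against 1 to 3 in each other library of the study. In the ETBF libraries the deviations of miR-191-5p ran from -0.04 to 0.06. Entries like ribosomal RNA took 0.00429% of counts in control replicate 1 and 0.00707 to 0.0162% in the other controls, and their part in this was not tested. The neighbour miR-425-5p did not share the dip: in control replicate 1 it was 0.06 above the other controls. MiR-191-3p in that library, at 9.35 CPM, was the lowest of the controls but within 0.1 CPM of control replicate 4.

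**Figure D3:**
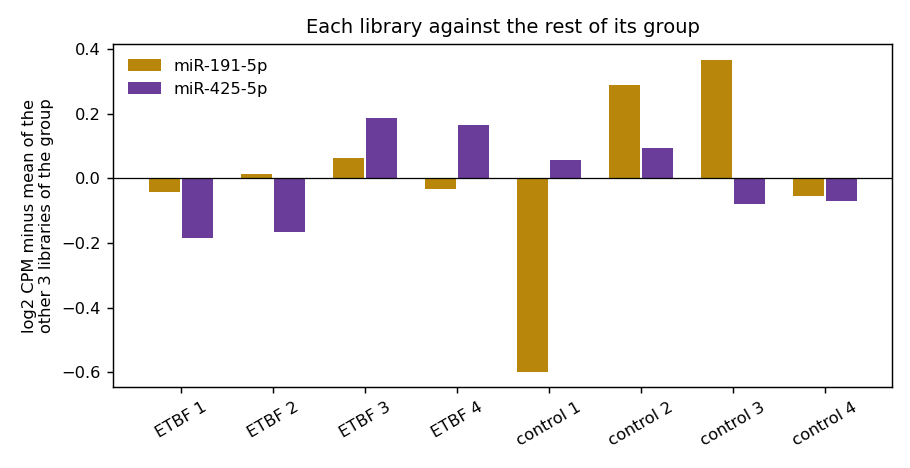
Log2 CPM of each library minus the mean of the other 3 libraries of its group (y axis) for miR-191-5p and miR-425-5p, ETBF libraries left and control libraries right. The largest bar is miR-191-5p in control replicate 1 at -0.60, where miR-425-5p is at 0.06.

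Ratios within a library do not depend on how libraries are scaled. The miR-191 hairpin was used almost wholly from its 5p arm, with 5p/3p count ratios of 586, 619, 568 and 487 in ETBF replicates 1 to 4 and 441, 562, 663 and 582 in control replicates 1 to 4. The ETBF ratios lay within the range of the controls. The means were 565 ± 56.3 in ETBF libraries, against 562 ± 91.7 in control libraries (SD, n = 4 each), a difference in log2 ratio of 0.01 (SE 0.16, limma adjusted p = 0.96 over 118 hairpins, 95% interval -0.34 to 0.36). Of the 118 hairpins with both arms tested, miR-191 had the fifth highest mean 5p/3p ratio, 553 as a geometric mean over the 8 libraries. The sign turned without control replicate 1 (-0.10), ETBF replicate 2 (-0.03) or ETBF replicate 1 (-0.01).

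The miR-425 hairpin left more of its passenger arm. Its 5p/3p ratios were 9.72, 11.9, 14.2 and 11.7 in ETBF replicates 1 to 4, against 10.6, 10.7, 10.4 and 10.2 in control replicates 1 to 4. The 4 controls were close together, and all lay inside the ETBF range, which reached below and above them. The means were 11.9 ± 1.83 in ETBF libraries, against 10.5 ± 0.197 in control libraries (SD, n = 4 each), a difference in log2 ratio of 0.17 (SE 0.14, limma adjusted p = 0.375 over 118 hairpins, 95% interval -0.14 to 0.48). With limma 32.2% of the 118 hairpins had an arm ratio that passed (11.9% with a higher and 20.3% with a lower 5p share with ETBF), and neither miR-191 nor miR-425 was among them.

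The ratio of the guide arms to each other was the remaining comparison. MiR-191-5p had 6.03, 6.15, 5.25 and 5.06 counts per count of miR-425-5p in ETBF replicates 1 to 4, against 4.20, 6.52, 7.44 and 5.94 in control replicates 1 to 4. All 4 ETBF ratios fell between the lowest and the second highest control. The means were 5.62 ± 0.545 in ETBF libraries, against 6.02 ± 1.36 in control libraries (SD, n = 4 each), and the difference in mean log2 ratio was -0.07 (two-sided exact permutation p = 0.743, where the smallest p that 70 arrangements allow is 0.0286). Without control replicate 1 it was much larger in size, at -0.24 (exact permutation p = 0.171, smallest possible 0.0571), and without control replicate 3 it was 0.04 (exact permutation p = 0.857). The 4 arms together took 0.679, 0.741, 0.741 and 0.731% of the library in ETBF replicates 1 to 4 and 0.497, 0.718, 0.785 and 0.667% in control replicates 1 to 4, of which miR-191-5p made up 82.2 to 84.9% with ETBF and 79.2 to 87% in controls.

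**Figure D4:**
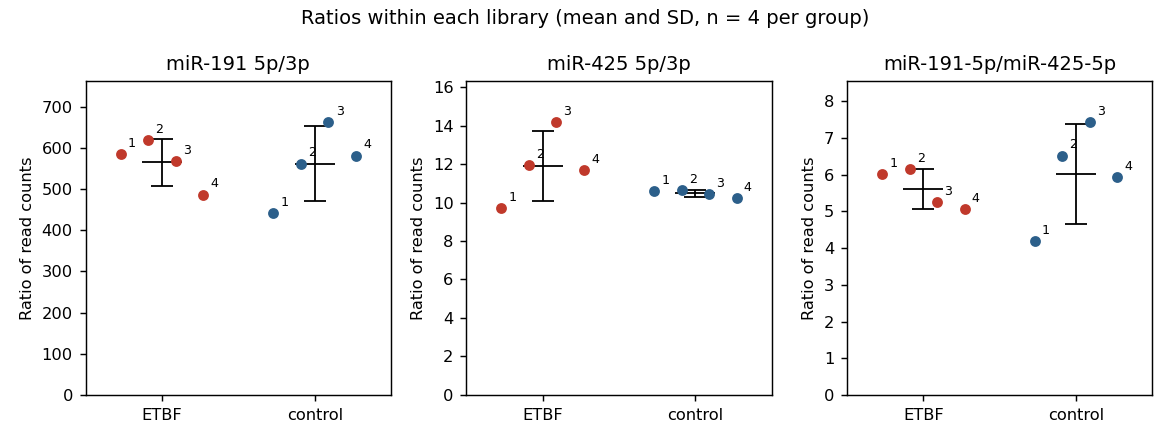
Ratio of read counts within each library (y axis, from 0) for the arms of miR-191, the arms of miR-425, and miR-191-5p over miR-425-5p, ETBF left and control right, with replicate numbers, mean and SD. The groups overlap in all 3 panels, and the miR-425 arm ratio spans 9.72 to 14.2 with ETBF and 10.2 to 10.7 in controls.

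Since both guide arms serve as reference miRNAs, the other miRNAs in such use were set beside them. Of a list of 18 that includes the 2 guide arms, all were tested: 3 were higher with ETBF, 5 were lower and 10 did not pass, with a median log2 fold change of -0.04, where all 480 tested miRNAs had a median of 0.01 and 19.8% of them were higher and 14.6% lower. Those that rose were miR-93-5p (0.47, SE 0.10, edgeR adjusted p = 0.00121), a member of the MCM7 cluster, miR-103a-3p (0.37, SE 0.07, edgeR adjusted p = 0.000485), from PANK genes, and miR-16-5p (0.30, SE 0.08, edgeR adjusted p = 0.0116), a repressor of cell cycle genes. Those that fell were miR-26a-5p (-0.49, SE 0.06, edgeR adjusted p = 1.87e-05), miR-423-3p (-0.41, SE 0.07), miR-423-5p (-0.33, SE 0.09), miR-24-3p (-0.31, SE 0.07) and let-7a-5p (-0.21, SE 0.06). The call of miR-16-5p was lost without ETBF replicate 2, control replicate 2 or control replicate 3 (adjusted p = 0.0726, 0.0606 and 0.0575 in edgeR), with upper-quartile scaling (0.0725) and after removal of the hairpin GC trend (0.0824). That of let-7a-5p was lost without ETBF replicate 3, ETBF replicate 4 or control replicate 3 (adjusted p = 0.0747, 0.0573 and 0.0684 in edgeR) and with total-count scaling (0.0852). Both miRNAs belong to families whose members or gene copies can share reads. Without control replicate 1, miR-93-5p was at 0.36 (edgeR adjusted p = 0.000746) and miR-423-5p at -0.25 (edgeR adjusted p = 0.0284).

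Among those that did not pass besides the guide arms, miR-23a-3p was at -0.00 (SE 0.07), miR-361-5p at -0.01 (SE 0.09), miR-151a-5p at 0.06 (SE 0.10), miR-30e-5p at -0.07 (SE 0.06) and miR-484 at 0.09 (SE 0.09). MiR-186-5p was at -0.10 (SE 0.07), miR-320a at -0.10 (SE 0.07) and miR-25-3p at -0.13 (SE 0.07). MiR-186-5p did pass after removal of the hairpin GC trend (-0.23, edgeR adjusted p = 0.0251). MiR-25-3p did with upper-quartile scaling (-0.22, edgeR adjusted p = 0.037). By SD of log2 CPM over the 8 libraries, the reference miRNA with the smallest spread was miR-23a-3p (0.06, rank 4 of 145), followed by miR-30e-5p (0.07, rank 6) and miR-320a (0.07, rank 8). The sign of the fold change of miR-23a-3p turned with total-count scaling (0.05). MiR-425-5p (rank 45) stood between miR-484 (rank 44) and miR-151a-5p (rank 49), and miR-191-5p (rank 94) between miR-423-5p (rank 93) and miR-423-3p (rank 95). Both miR-423 arms passed the test, whereas the SD of miR-191-5p arose among the controls.

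**Figure D5:**
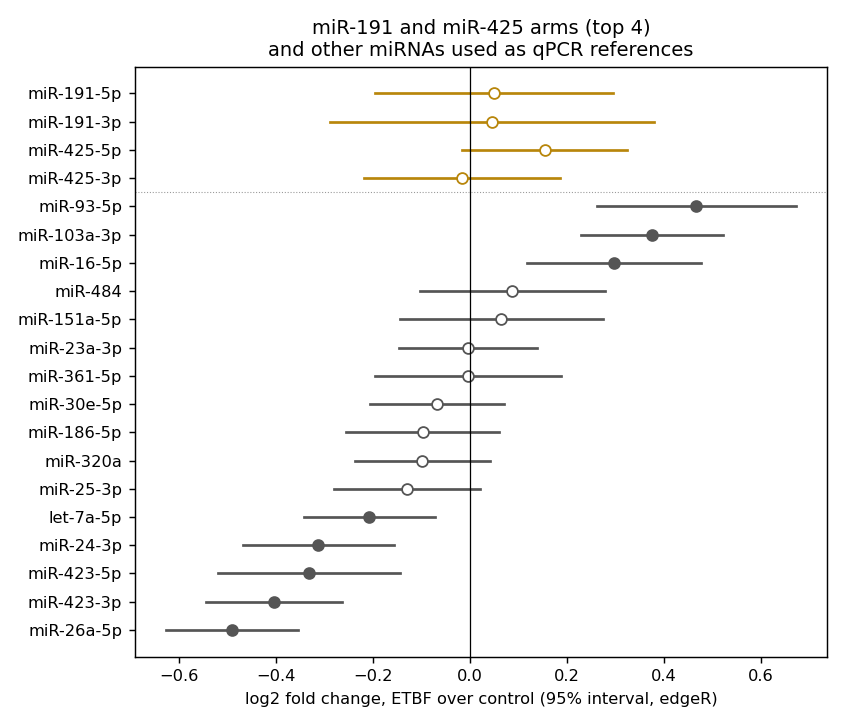
Log2 fold change of ETBF over control (x axis) with its 95% interval from edgeR, for the 4 arms of miR-191 and miR-425 (top, gold) and 16 other reference miRNAs (grey); filled points have an adjusted p under 0.05. All 4 arms have open points with intervals that include 0, and 8 of the 16 others are filled.

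Other clusters of 2 or more hairpins in an intron of a protein-coding gene were read in the same way. Of the 42 listed arms from the host genes MCM7, SMC4, NFYC, SKA2, AOPEP, HUWE1 and CLCN5, 39 were tested: 11 were higher with ETBF, 4 were lower and 24 did not pass, with a median log2 fold change of 0.03; over all tested miRNAs 19.8% were higher and 14.6% lower. Of their 21 major arms 6 rose, 3 fell and 12 did not pass, these 12 lying between -0.25 and 0.19. Of those 9 calls, miR-30c-5p lost its own in 11 of 19 alternatives, miR-301a-5p in 10, miR-16-5p in 5, and miR-106b-3p and miR-15b-5p in 3 each. MiR-660-5p rose (0.42, SE 0.08, edgeR adjusted p = 0.000731) and miR-532-5p fell (-0.64, SE 0.08, edgeR adjusted p = 8.89e-06), although both lie in the CLCN5 cluster. In the AOPEP cluster miR-24-3p fell (-0.31, SE 0.07), while miR-27b-3p was at 0.09 (SE 0.07) and did not pass. MiR-24-3p also arises from another locus, as do miR-16-5p, miR-30c-5p and let-7f-5p. The values of these arms are therefore not those of the listed clusters alone. Of 14 such hairpins with both arms tested, the 5p share rose in 3 (miR-25, miR-93 and miR-27b) and fell in 2 (miR-454 and miR-532), and 9 did not pass with limma, where 32.2% of all 118 hairpins did. Whether the DALRD3 hairpins differ from these clusters was not tested.

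By abundance miR-191-5p ranked between 21 and 24 of all names in the ETBF libraries and between 22 and 29 in controls. Its neighbours in mean level were miR-125b-5p, at 5909 ± 231 CPM in ETBF libraries and 7357 ± 818 CPM in control libraries, and miR-25-3p, at 5038 ± 420 CPM in ETBF libraries, against 5517 ± 220 CPM in control libraries (SD, n = 4 each). In the controls the spread of miR-191-5p covered the levels of miR-25-3p. MiR-425-5p ranked between 54 and 63 with ETBF and at 65 or 66 in controls.

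The miRNAs whose profile over the 8 libraries was most like that of each guide arm were found by the root-mean-square distance between log2 CPM values centred on each miRNA's own mean. For miR-191-5p they were miR-1307-3p (0.11 log2 units), miR-100-5p (0.13), miR-141-3p (0.15), miR-194-5p (0.17) and miR-19a-3p (0.17), where the median over all those compared was 0.27. All 5 were low in control replicate 1, by 0.26 to 0.63 log2 units relative to the other controls. For miR-425-5p they were miR-99b-3p (0.06), miR-27b-3p (0.09), miR-455-5p (0.09), miR-148b-3p (0.10) and miR-340-5p (0.10), where the median was 0.21. The log2 fold changes of these 5 ran from -0.01 for miR-455-5p to 0.27 for miR-148b-3p. No miRNA was in both sets, and neither guide arm was among the 5 nearest to the other. The sets were not found again without control replicate 1, on which that of miR-191-5p in particular may rest.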

How the data were processed

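Small RNA was sequenced from 8 HCT116 libraries, 4 with ETBF and 4 controls, grouped by their titles. Each deposited file lists unnormalised read counts, 1 for each mature miRNA name. The authors used Trimmomatic, FastQC and featureCounts with GRCh37.p5, per the submitters' processing notes. Not given in the sources used here are their versions, the aligner, the release of miRNA annotation and how strand was set. Without a known strand setting, reads from the opposite strand at MIR191 cannot be told apart. The greatest common divisor of the 8 counts was 1 for each member. Since each hairpin is placed at 1 locus here, this could not have shown counting per genomic copy.

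From these counts edgeR 4.0.16, run in R 4.3.3, gave the fold changes (quasi-likelihood F test, TMM, expression filter at a minimum count of 10), adjusted by Benjamini-Hochberg over the 480 miRNAs left, with a threshold of 0.05. The SE is approximate, being the fold change over the square root of F, and the 95% interval was built from it. Log2 CPM used a prior count of 2. Arm ratios were tested with limma 3.58.1 on log2 count ratios after adding 0.5 to each arm, over 118 hairpins, and the ratio of the guide arms by exact permutation (SciPy 1.17.1). DESeq2 1.42.0 was an alternative. The tests were tried on simulated data first. There edgeR called 62.3% of changes of 0.5 log2 units and 91.9% of changes of 1. It called 1.5% of miRNAs without a change. For arm ratios limma called 52.2% of changes of 0.5 and 95.5% of changes of 1 or more. Changes of 0.5 log2 units or less could therefore be missed.

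The members and lists were chosen with earlier results of these data known. Named miRNAs are the members, the 5 nearest in profile to each guide arm, the reference list, and examples from the major arms of other intronic clusters, whose uncalled arms are given as a range. Alternatives covered scaling, filter, tool, depth, GC content, the replicate block and each library left out. The hairpin GC trend, the spread without control replicate 1 and the overlap as percent of the library were added after seeing the data.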

Additional observations from a re-analysis of the deposited data

Results flagged for a closer look

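Of 16 groups of 4 values examined for a library apart from the rest, 1 was picked out, and chance alone picks out about 1 in 20. The share of counts taken by the 4 arms together was 0.679% in ETBF replicate 1 and 0.731 to 0.741% in the other 3 ETBF libraries, so that the gap to the nearest library was 0.84 of the whole range. In controls the share was 0.497 to 0.785%.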

How the results depend on the processing

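No arm of miR-191 or miR-425 passed under any alternative, except miR-425-5p after removal of the hairpin GC trend (0.23, adjusted p = 0.0392). MiR-425-5p has no value for the GC trend of mature sequences. Signs near 0 turned with upper-quartile scaling for miR-191-5p (-0.038), miR-191-3p (-0.039) and miR-151a-5p (-0.016), and with total-count scaling for miR-425-3p (0.037), miR-361-5p (0.049), miR-455-5p (0.044) and miR-23a-3p (0.053). They also turned for miR-425-3p after thinning (0.058) and after removal of the mature (0.089) or hairpin GC trend (0.0545), for miR-1307-3p after removal of the mature GC trend (0.13), for miR-25-3p (0.028) and miR-455-5p (0.012) after removal of the hairpin GC trend, and for miR-361-5p with the stricter filter (0.0077) and after thinning (0.0002). MiR-23a-3p turned with the stricter filter (0.0085), after thinning (0.048) and after removal of the hairpin GC trend (0.068). The cause was not tested. With 1 library left out, miR-191-5p ran from -0.080 to 0.14, miR-191-3p from -0.012 to 0.10, miR-425-5p from 0.09 to 0.19 and miR-425-3p from -0.080 to 0.0098. The miR-191 arm ratio ran from -0.10 to 0.10, that of miR-425 from 0.08 to 0.26, and the log2 ratio of the guide arms from -0.24 to 0.037. The SD over the libraries ran from 0.11 to 0.24 for miR-191-5p and from 0.11 to 0.15 for miR-425-5p. The ranges were -0.040 to 0.035 for miR-361-5p, -0.055 to 0.011 for miR-23a-3p, -0.19 to 0.065 for miR-100-5p and -0.079 to 0.027 for miR-455-5p. Over all alternatives 71 to 106 miRNAs were higher and 59 to 89 lower; upper-quartile scaling gave 71 higher and 89 lower (44.4% higher), against 95 and 70 (57.6%) with TMM.

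No sign was seen that replicate numbers pair the libraries. Same-numbered libraries had correlations of deviations of -0.06 to 0.06. Of 4 ETBF libraries 0 correlated best with the control of their own number, and of 4 controls 1 did with its ETBF library. Such correlations cannot show that no culture or day was shared. With the replicate block miR-191-5p was at 0.07, miR-191-3p at 0.05, miR-425-5p at 0.15, miR-425-3p at -0.02 and the arm ratios at 0.01 and 0.17, none past the threshold, and 92 miRNAs were higher and 67 lower. The paired difference in the guide arm ratio was -0.07 (exact p = 0.75, where 4 pairs cannot pass 0.05). The thinnest counts are those of miR-191-3p, with 32 to 66 a library.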
